A study of Ovis aries with 15 samples.

Results

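The genes described here, VDR, CYP27B1, CYP24A1, KL, CALB1, TRPV5 and PTH1R, make, break down or respond to active vitamin D and the hormones that set calcium and phosphate balance. They were chosen by name and are 7 of the 25592 genes in the deposited table. VDR, KL, CALB1 and PTH1R were listed under these symbols. The other 3 were found through the table's description of each gene, after the table had been read, with CYP27B1 listed as LOC101116039, CYP24A1 as CYP24 and TRPV5 as LOC101120825.

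The measurement was RNA-seq of kidney tissue from male sheep of a Dorper × Small-tailed Han cross, 4 months of age, with 5 libraries in each of 3 groups. The CON sheep ate a total mixed ration, the AFB1 sheep ate it with aflatoxin B1 (a mould toxin of feed) at 500 µg/kg dry matter, and the AFB1_CUR sheep ate it with that amount of the toxin plus curcumin (a plant polyphenol) at 800 mg/kg dry matter, all for 21 days. No group received curcumin alone, the sheep shared pens, and neither the pen nor the kidney region of each library was analysed here. Comparing AFB1 with CON asks what the toxin changed, and comparing AFB1_CUR with AFB1 asks what curcumin changed in sheep that ate the toxin.

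Total read counts were 50255295 to 68747047 per library. In the library labelled AFB1 replicate 1, 7 hepatocyte genes had a mean log2(FPKM + 1) of 11.49, against 1.81 to 3.49 in the other 14 libraries, and 7 proximal tubule genes had 4.66, against 7.74 to 9.45 (FPKM scales the fragments of a gene by its length and by the mapped fragments of the library). This library goes against its kidney label, so it is shown apart and the comparisons rest on the other 14, with the fit of all 15 beside them where it changes a result. Another pair, AFB1 replicate 2 and AFB1_CUR replicate 2, stood out for leukocyte genes, with a summed FPKM of PTPRC, CD3E and CD79A of 80.1 and 132, against 7.50 to 29.5 in the remaining 12 kidney libraries. In the same pair the summed FPKM of the 7 proximal tubule genes was 2691 and 2536, against 4184 to 8095.

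The kidney is where vitamin D is activated. In the proximal tubule, the mitochondrial enzyme CYP27B1 turns the circulating precursor into the active hormone, and CYP24A1 breaks both down. Parathyroid hormone, acting through its receptor PTH1R, induces CYP27B1 and lowers phosphate uptake, while FGF23, a bone hormone that needs the co-receptor Klotho (KL), represses CYP27B1, induces CYP24A1 and also lowers phosphate uptake. The active hormone binds its receptor VDR, a transcription factor for which CYP24A1 is the classic target gene, and in the distal tubule it supports the calcium entry channel TRPV5 and the calcium-carrying protein calbindin-D28k, the product of CALB1.

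All 7 genes were measured well above the counting limit in the 14 libraries, with CYP24A1 lowest at 248 to 4378 reads and CALB1 highest at 14232 to 47658. FPKM corrects for gene length, so levels can be set side by side. CALB1 averaged 176 FPKM over the 14 libraries, PTH1R 70.1, KL 42.6, CYP27B1 22.1, VDR 16.7, TRPV5 6.68 and CYP24A1 5.11. Most neighbours in this order were well separated, with CALB1 above PTH1R in 13 of 14 libraries, PTH1R above KL in 14, KL above CYP27B1 in 12 and VDR above TRPV5 in 14. CYP27B1 exceeded VDR in only 7 of 14 and TRPV5 exceeded CYP24A1 in 9 of 14, so these neighbours were not ordered beyond their spread.

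The genes also differed in how steady they were. VDR varied least, with a coefficient of variation of 9.93% of its FPKM over the 14 libraries and a highest value 1.47 times the lowest. PTH1R (24.8%), TRPV5 (25.6%), CALB1 (28.6%) and KL (31.3%) were intermediate. The enzymes varied most, CYP27B1 with 65.1% and a 7.53-fold range and CYP24A1 with 94.4% and a 17.7-fold range, while counting error at the lowest count of CYP24A1 was 6.35%.

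In AFB1 replicate 1 all 7 genes were far below every other library. VDR was at 1.74 FPKM, PTH1R at 5.37, CYP27B1 at 0.358, KL at 0.256, CALB1 at 0.107 and CYP24A1 at 0.0539. TRPV5 had a count of 0, which allows up to 3 reads in the 56112028 of that library (counting error only).

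**Figure D1:**
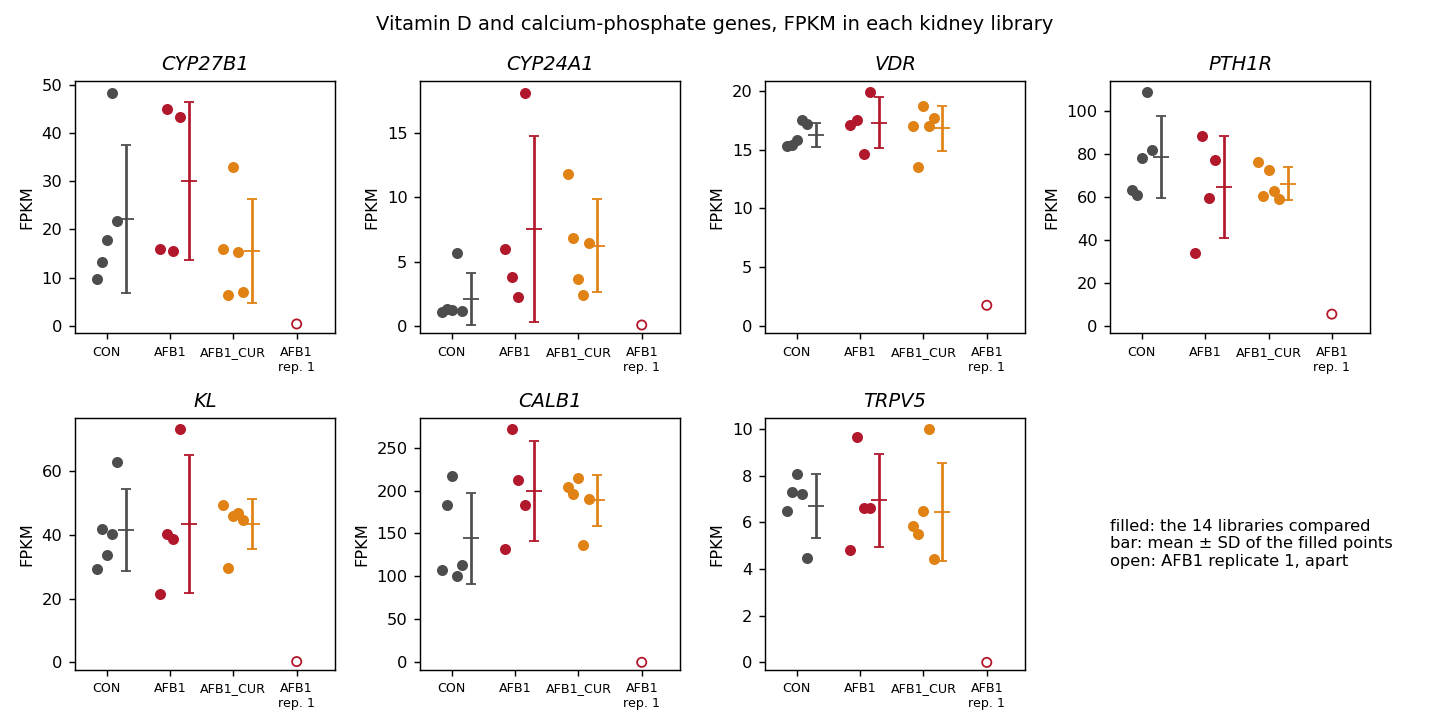
FPKM (linear y axes from 0) of the 7 genes in each library by group; filled points are the 14 libraries compared, the bar beside them is their mean ± SD (n = 5 CON, 4 AFB1, 5 AFB1_CUR), and the open point is AFB1 replicate 1. CYP24A1 is at 1.03 to 1.28 in 4 of the CON libraries and at 2.199 or more in every filled AFB1 and AFB1_CUR point, VDR hardly varies, and AFB1 replicate 1 is below all other points in each panel.

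CYP24A1, the enzyme that inactivates vitamin D, was the only member with an unadjusted p below 0.05 and a fold change above 1.5 in edgeR. It did not pass adjustment. It lies on chromosome 13 from 81624097 to 81646391, minus strand. In CON its FPKM was 1.03, 1.28, 1.24, 5.70 and 1.12 in replicates 1 to 5. In AFB1 it was 5.94, 3.77, 2.199 and 18.2 in replicates 2 to 5, and in AFB1_CUR 11.8, 6.84, 3.62, 2.42 and 6.44. The CON libraries other than replicate 4 lay below every library of both treated groups, and CON replicate 4 lay within their range, so the groups overlapped through that library.

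The group means of CYP24A1 were 2.07 ± 2.03 FPKM in CON (SD, n = 5), 7.52 ± 7.26 in AFB1 (n = 4) and 6.22 ± 3.62 in AFB1_CUR (n = 5). In edgeR's quasi-likelihood test over 20070 genes, CYP24A1 was 3.81-fold higher in AFB1 than in CON, or 1.93 ± 0.71 as a log2 fold change (± standard error, unadjusted p = 0.0161). It was 2.81-fold higher in AFB1_CUR than in CON, or 1.49 ± 0.67 (unadjusted p = 0.0436). Both passed the study's screen, a fold change of more than 1.5 with an unadjusted p below 0.05, and such genes are referred to as called. Neither passed after Benjamini-Hochberg adjustment over all genes tested (adjusted p = 0.985 and 0.870), and edgeR called 0 genes of the table at an adjusted p under 0.05 in any of the 3 comparisons, with 977 genes at an unadjusted p under 0.05 between AFB1 and CON, 549 between AFB1_CUR and AFB1 and 1057 between AFB1_CUR and CON. A two-sided exact permutation test of CYP24A1 alone on log2(FPKM + 1) gave p = 0.0476 for AFB1 against CON and p = 0.0238 for AFB1_CUR against CON. These comparisons share the CON libraries.

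CYP24A1 was thus 1 of 7 members called between AFB1 and CON, where 2.65% of all genes tested were called, and 1 of 7 between AFB1_CUR and CON, where 2.64% were. Between AFB1_CUR and AFB1 none of the 7 was called, against 1.74% of all genes, and CYP24A1 differed by -0.44 (standard error 0.69, unadjusted p = 0.537). DESeq2 on the same counts called 21 genes of the table after adjustment between AFB1 and CON, 2 between AFB1_CUR and CON and 6 between AFB1_CUR and AFB1, and 0 of them were members, while limma on log2(FPKM + 1) called 0. By the unadjusted thresholds DESeq2 and limma called the same member, CYP24A1, in both comparisons with CON and 0 members between AFB1_CUR and AFB1.

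The size of the CYP24A1 estimate depended on single libraries. Between AFB1 and CON it fell to 0.83 (unadjusted p = 0.204) without AFB1 replicate 5, the library at 18.2 FPKM, and rose to 2.80 (unadjusted p = 0.000792) without CON replicate 4. The call held in 13 of the 14 fits that left out 1 library. Between AFB1_CUR and CON the call held in 7 of 14. It was lost without CON replicate 1, 2, 3 or 5 or AFB1_CUR replicate 1, 2 or 5, with the smallest value, 1.06 (unadjusted p = 0.140), without AFB1_CUR replicate 1 and the largest, 2.36 (unadjusted p = 0.00209), without CON replicate 4. With AFB1 replicate 1 in the fit neither comparison was called, at 1.60 (unadjusted p = 0.104) and 1.47 (unadjusted p = 0.129). Neither call held with a block for the replicate number, with the values given at the end. Without the libraries high in leukocyte genes the first comparison gave 2.06 (unadjusted p = 0.0209), and the second gave 1.501 (unadjusted p = 0.0618) and was not called.

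**Figure D2:**
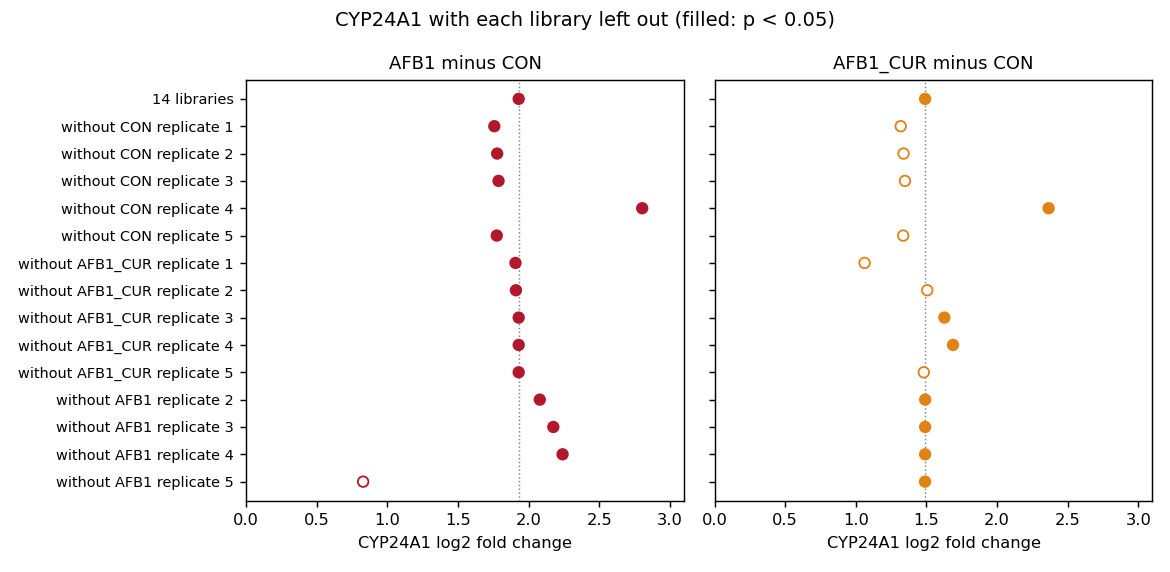
Log2 fold change of CYP24A1 (x axis) from edgeR in the 14 libraries and in 14 fits that each omit 1 library (y axis), for AFB1 minus CON (left) and AFB1_CUR minus CON (right); filled points are called (fold above 1.5, unadjusted p below 0.05), and the dotted line is the value in the 14 libraries. The estimate stays above 0 in each fit, from 0.83 to 2.80 on the left and from 1.06 to 2.36 on the right.

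CYP27B1, which makes the active hormone, was not called in any comparison. It lies on chromosome 3 from 161885581 to 161890672, plus strand. Its FPKM was 9.76, 13.2, 17.8, 48.5 and 21.8 in CON, 16.0, 45.1, 15.6 and 43.5 in AFB1 replicates 2 to 5, and 15.9, 6.43, 33.0, 15.3 and 7.08 in AFB1_CUR. The AFB1 libraries formed a low and a high pair, the highest value of all was CON replicate 4, and the lowest were AFB1_CUR replicates 2 and 5. The groups overlapped in each comparison.

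The largest estimate for CYP27B1 was between the groups that both ate the toxin, 2.03-fold lower in AFB1_CUR than in AFB1, at -1.02 (standard error 0.58, unadjusted p = 0.0987, adjusted p = 0.9996 from edgeR). It was 0.45 (standard error 0.58) between AFB1 and CON and -0.57 (standard error 0.55) between AFB1_CUR and CON. Leaving out AFB1_CUR replicate 3, the highest of its group, gave -1.51 (unadjusted p = 0.0200) between AFB1_CUR and AFB1, which passed the thresholds. The other 13 fits that left out 1 library did not.

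The enzymes did not keep a fixed proportion. CYP24A1 FPKM divided by CYP27B1 FPKM was 0.105, 0.0969, 0.0698, 0.118 and 0.0513 in CON. It was 0.371, 0.0837, 0.141 and 0.418 in AFB1 replicates 2 to 5 and 0.743, 1.06, 0.110, 0.159 and 0.910 in AFB1_CUR. The medians were 0.0969, 0.256 and 0.743. CON replicate 4, the CON library with high CYP24A1, also had the highest CYP27B1, and its ratio of 0.118 was close to those of CON replicates 1 and 2. In AFB1_CUR replicates 2 and 5, the ratio was high with CYP27B1 at its lowest. These were also the AFB1_CUR libraries with the lowest proximal tubule sums, 2536 and 4184 FPKM against 5392 to 6827 in the rest of the group, and replicate 2 was one of the pair high in leukocyte genes. The part of cell content in CYP27B1 and in the ratio was not tested. The ratio was formed after the values had been seen and was not tested.

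**Figure D3:**
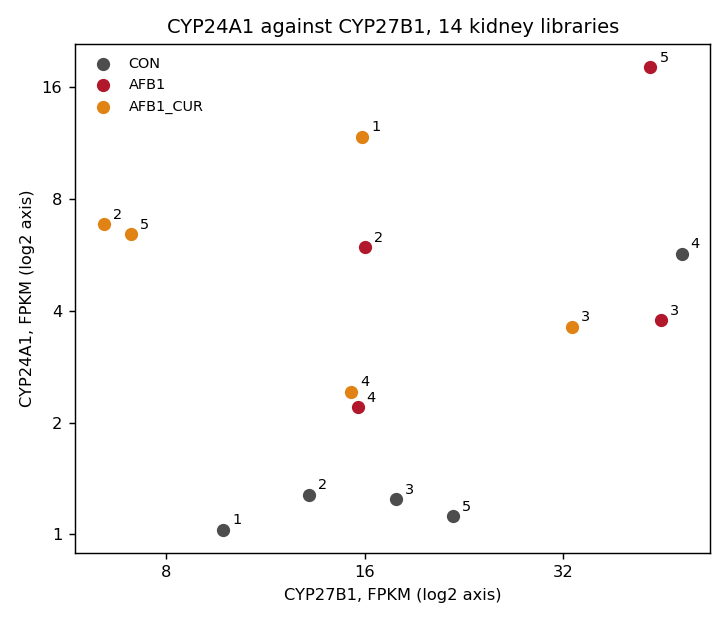
CYP24A1 FPKM against CYP27B1 FPKM (both log2 axes) in the 14 libraries, coloured by group and numbered by replicate. The CON libraries have ratios of 0.0513 to 0.118, a range that also holds AFB1 replicate 3 and AFB1_CUR replicate 3 (0.0837 and 0.110), and AFB1_CUR replicates 1, 2 and 5 lie highest above them with ratios of 0.743 to 1.06.

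VDR, the receptor of the active hormone, was the steadiest member. It lies on chromosome 3 from 138636084 to 138742553, plus strand. Its FPKM was 15.3, 15.4, 15.8, 17.5 and 17.2 in CON, 17.1, 17.5, 14.6 and 19.9 in AFB1 replicates 2 to 5, and 17.0, 13.5, 18.7, 17.1 and 17.7 in AFB1_CUR. The groups overlapped throughout. The log2 fold changes were 0.11 for AFB1 against CON, -0.12 for AFB1_CUR against AFB1 and -0.01 for AFB1_CUR against CON, with standard errors of 0.16, 0.16 and 0.15.

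PTH1R, the parathyroid hormone receptor, lies on chromosome 19 from 52599764 to 52625081, minus strand. Its FPKM was 63.3, 60.6, 78.2, 109 and 81.5 in CON, 33.8, 88.1, 59.5 and 77.3 in AFB1 replicates 2 to 5, and 76.0, 60.4, 72.4, 62.5 and 58.9 in AFB1_CUR. The highest value was CON replicate 4 and the lowest AFB1 replicate 2, one of the libraries high in leukocyte genes and low in proximal tubule genes. It was not called, with log2 fold changes of -0.26 (standard error 0.28) for AFB1 against CON and -0.32 (standard error 0.26) for AFB1_CUR against CON.

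KL lies on chromosome 10 from 28353940 to 28393773, minus strand. Its FPKM was 29.2, 41.8, 33.7, 40.3 and 62.6 in CON, 21.3, 40.1, 38.7 and 73.0 in AFB1 replicates 2 to 5, and 49.2, 29.6, 45.8, 46.9 and 44.5 in AFB1_CUR. The lowest library of the AFB1 group and the lowest of the AFB1_CUR group were the pair high in leukocyte genes. In bulk tissue, fewer cells of a type and less RNA per cell cannot be told apart, and the part of cell content in the KL and PTH1R levels was not tested. The group means were 41.5 ± 12.9 in CON (SD, n = 5), 43.3 ± 21.6 in AFB1 (n = 4) and 43.2 ± 7.79 in AFB1_CUR (n = 5), and the log2 fold changes were 0.12 for AFB1 against CON, -0.12 for AFB1_CUR against AFB1 and 0.00 for AFB1_CUR against CON, each within its standard error of 0.33 to 0.35.

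CALB1, the most abundant member, had the lowest unadjusted p after CYP24A1. It lies on chromosome 9 from 86559328 to 86581005, plus strand. Its FPKM was 107, 183, 217, 101 and 113 in CON, 132, 271, 213 and 183 in AFB1 replicates 2 to 5, and 205, 196, 214, 137 and 191 in AFB1_CUR. CON replicates 1, 4 and 5 were below every other library, and CON replicates 2 and 3 were within the range of the treated groups.

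The means of CALB1 were 144 ± 52.5 FPKM in CON (SD, n = 5), 200 ± 58.1 in AFB1 (n = 4) and 188 ± 30.0 in AFB1_CUR (n = 5). AFB1 exceeded CON by 0.50 on the log2 scale (standard error 0.25, unadjusted p = 0.0667) and AFB1_CUR exceeded CON by 0.33 (standard error 0.24, unadjusted p = 0.185), while AFB1_CUR differed from AFB1 by -0.17 (standard error 0.25, unadjusted p = 0.517). For AFB1 against CON it passed the thresholds without AFB1 replicate 2 (0.68, unadjusted p = 0.0122), without CON replicate 3 (0.69, unadjusted p = 0.0111) and without both libraries high in leukocyte genes (0.67, unadjusted p = 0.0140). The 4 distal convoluted tubule genes SLC12A3, KLHL3, KCNJ16 and WNK4, measured as markers of the segment where CALB1 is made, had a mean log2(FPKM + 1) of 5.42 ± 0.24 (± SD) in the CON libraries, 5.51 ± 0.32 in those of AFB1 and 5.23 ± 0.17 in those of AFB1_CUR, and edgeR called 0 of 4 in any comparison. All 4 had a lower estimate in AFB1_CUR than in AFB1 (median -0.42), with 1 at an unadjusted p under 0.05 in edgeR and 1 called by DESeq2, and the estimates of CALB1 and TRPV5 there, also below 0, were within their standard errors. The part of these markers in the CALB1 and TRPV5 values was not tested.

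TRPV5, the distal calcium channel, lies on chromosome 4 from 107405998 to 107440900, minus strand. Its FPKM was 6.48, 7.28, 8.07, 7.22 and 4.48 in CON, 4.82, 9.66, 6.64 and 6.63 in AFB1 replicates 2 to 5, and 5.83, 5.51, 6.50, 9.98 and 4.42 in AFB1_CUR. The groups overlapped, and the log2 fold changes were 0.07 for AFB1 against CON, -0.17 for AFB1_CUR against AFB1 and -0.11 for AFB1_CUR against CON, within their standard errors of 0.24 to 0.26. Its paralogue and neighbour TRPV6, from 107376955 to 107393366 on the same strand, averaged 1.11 FPKM over the 14 libraries and was not called. The treatment of reads that fit both genes is not stated.

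The estimates of 6 of the 7 members were higher with the toxin than without it (AFB1 against CON, median 0.12 on the log2 scale, against 0.03 over all genes tested), though VDR, KL and TRPV5 turned lower with AFB1 replicate 1 in the fit and KL also with limma on log2 FPKM. All 7 estimates were lower in AFB1_CUR than in AFB1 (median -0.17, against 0.00), though none was called, 5 of them turned higher with AFB1 replicate 1 in the fit, and PTH1R and KL also turned higher with limma on log2 FPKM. In AFB1_CUR against CON, 3 were higher and 4 lower (median -0.01, against 0.02). These comparisons share libraries and are not independent of each other.

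**Figure D4:**
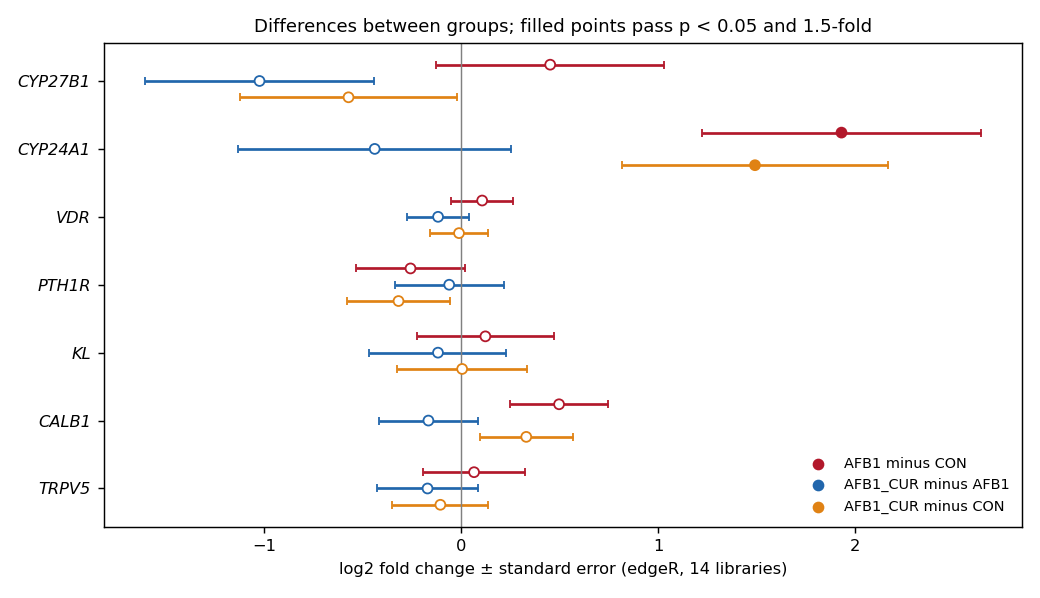
Log2 fold change ± standard error (x axis) of each gene (y axis) in the 3 comparisons, from edgeR in 14 libraries; filled points are called (fold above 1.5, unadjusted p below 0.05). CYP24A1 is filled at 1.93 and 1.49 against CON, all blue points (AFB1_CUR minus AFB1) lie below 0, and the bars of VDR are the shortest.

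Other genes of vitamin D, calcium, magnesium and phosphate handling were read from a list of 47, of which 45 were in the table and 41 passed the count filter. Between AFB1 and CON, 1 rose and 2 fell by the thresholds, where 1.25% of all genes rose and 1.4% fell. Between AFB1_CUR and AFB1, 0 rose and 1 fell, where 0.892% and 0.852% of all genes did, and between AFB1_CUR and CON, 0 rose and 1 fell, where 1.73% and 0.907% did. The medians over the 41 genes were -0.14, 0.06 and -0.07, against 0.03, 0.00 and 0.02 over all genes tested.

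Among the 11 phosphate transport genes, the sodium-phosphate cotransporters SLC34A3 and SLC34A2 were called. SLC34A3, a proximal tubule cotransporter, was at 84.4, 81.1, 81.9, 100 and 76.0 FPKM in CON, at 41.4, 76.6, 38.6 and 48.9 in AFB1 replicates 2 to 5, and at 61.7, 35.6, 63.4, 76.0 and 34.2 in AFB1_CUR. AFB1 replicate 3 was the 1 AFB1 library that reached the CON range, and all 5 AFB1_CUR libraries were below it, the nearest by less than 0.1 FPKM. AFB1_CUR and CON thus did not overlap, as for 0.767% of all genes tested, and AFB1_CUR and AFB1 did, as all but 0.747% of genes do. SLC34A3 was 1.65-fold lower in AFB1 than in CON, at -0.72 (standard error 0.28, unadjusted p = 0.0217, adjusted p = 0.985 from edgeR), and 1.61-fold lower in AFB1_CUR than in CON, at -0.69 (standard error 0.26, unadjusted p = 0.0188, adjusted p = 0.870 from edgeR).

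The first of these SLC34A3 calls was lost without CON replicate 4, AFB1 replicate 2 or AFB1 replicate 4 (-0.60 to -0.63, unadjusted p of 0.0511 to 0.0678). The second fell under the fold threshold without AFB1_CUR replicate 2 (-0.54) or 5 (-0.56) and without the libraries high in leukocyte genes (-0.55). In AFB1 replicate 2 and AFB1_CUR replicate 2, which had low sums of proximal tubule genes, SLC34A3 was at 41.4 and 35.6. It was at 38.6 in AFB1 replicate 4 and 34.2 in AFB1_CUR replicate 5, whose proximal tubule sums of 4440 and 4184 were among the 3 lowest of the remaining 12 kidney libraries. Neither call held with AFB1 replicate 1 in the fit, at -1.05 (unadjusted p = 0.270) and -0.70 (unadjusted p = 0.454). Of the 7 proximal tubule markers, 6 were lower in AFB1 than in CON (median -0.26) and 6 lower in AFB1_CUR than in CON (median -0.29), with 0 called, and their sums were 4433 to 6779 FPKM in CON, 2691 to 8095 in AFB1 and 2536 to 6827 in AFB1_CUR. The part of tubule content was not tested.

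SLC34A2, a cotransporter best known from lung and gut, was low in the kidney. It was at 1.93, 3.31, 2.07, 1.88 and 3.74 FPKM in CON, 1.63, 1.29, 1.49 and 1.39 in AFB1 replicates 2 to 5, and 1.91, 1.86, 1.11, 1.95 and 3.12 in AFB1_CUR. AFB1 and CON did not overlap, as for 1.6% of all genes tested. It was 1.76-fold lower in AFB1, at -0.82 (standard error 0.28, unadjusted p = 0.0104, adjusted p = 0.985 from edgeR), and the call held in all 14 fits that left out 1 library. It was lost with AFB1 replicate 1, where SLC34A2 had no reads, in the fit (-1.15, unadjusted p = 0.137). The estimate also fell under the fold threshold with limma on log2(FPKM + 1).

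SLC34A1, the main proximal phosphate cotransporter, had a mean of 212 ± 95.8 FPKM in CON (SD, n = 5), 145 ± 107 in AFB1 (n = 4) and 197 ± 82.0 in AFB1_CUR (n = 5). Its log2 fold change in AFB1 was -0.57 (standard error 0.50, unadjusted p = 0.273), inside the spread between libraries. PDZK1, a scaffold protein that holds phosphate cotransporters at the membrane and the most abundant gene of this group, was at -0.28 (standard error 0.40). In all, 8 of the 11 phosphate genes had a lower estimate in AFB1 than in CON and 9 of 11 in AFB1_CUR than in CON, comparisons that share the CON libraries.

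Of the 5 genes of calcium transport through the cell, S100G, which encodes calbindin-D9k, another calcium-carrying protein, was the most abundant. Its FPKM was 234, 233, 267, 277 and 123 in CON, 185, 383, 562 and 222 in AFB1 replicates 2 to 5, and 118, 194, 212, 215 and 207 in AFB1_CUR. AFB1 replicates 3 and 4 were above every other library, and the other AFB1 libraries lay within the range of the rest. S100G was 1.89-fold lower in AFB1_CUR than in AFB1, at -0.92 (standard error 0.31, unadjusted p = 0.0104, adjusted p = 0.9996 from edgeR). The call was lost without AFB1 replicate 4 (-0.55, unadjusted p = 0.0749) and with AFB1 replicate 1 in the fit (-0.60, unadjusted p = 0.491). The 4 distal convoluted tubule markers were also lower in this comparison, as given for CALB1, and their part in the S100G value was not tested. In AFB1 against CON, S100G was at 0.59 (standard error 0.31) and was not called, and it passed the thresholds without AFB1 replicate 2 (0.81, unadjusted p = 0.0137) and without both libraries high in leukocyte genes (0.80, unadjusted p = 0.0174).

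**Figure D5:**
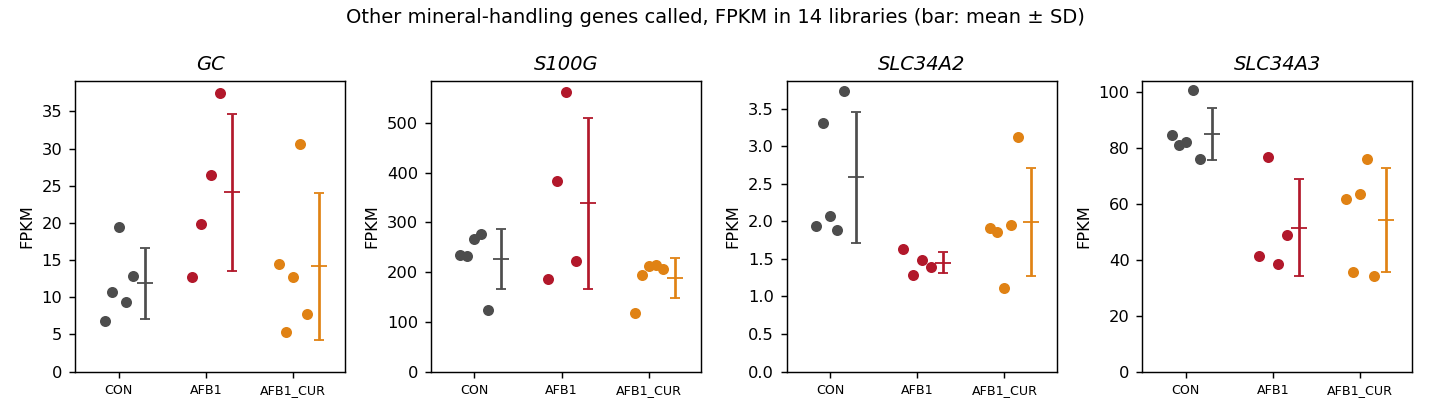
FPKM (linear y axes from 0) in the 14 libraries of the other mineral-handling genes called in at least 1 comparison, with the mean ± SD of each group beside its points (n = 5 CON, 4 AFB1, 5 AFB1_CUR). SLC34A2 does not overlap between CON and AFB1, the AFB1_CUR points of SLC34A3 lie below those of CON, and GC and S100G are highest in an AFB1 library.

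Of 9 genes of vitamin D supply, 8 were tested. GC, which encodes the plasma vitamin D binding protein, mostly a liver product, was at 6.84, 10.8, 19.5, 9.42 and 12.9 FPKM in CON, 12.7, 19.9, 26.5 and 37.4 in AFB1 replicates 2 to 5, and 14.5, 5.29, 12.7, 30.6 and 7.73 in AFB1_CUR. It reached 584 FPKM in AFB1 replicate 1. Without that library GC was 2.12-fold higher in AFB1 than in CON, at 1.08 (standard error 0.49, unadjusted p = 0.0453, adjusted p = 0.985 from edgeR), and the groups overlapped. The call held in 6 of the 14 fits that left out 1 further library, and was lost without CON replicate 1, 2, 4 or 5, AFB1_CUR replicate 1 or 3, or AFB1 replicate 4 or 5 (0.69 to 1.13, unadjusted p of 0.0536 to 0.195). It was also lost with a block for the replicate number. In AFB1_CUR against AFB1, GC was at -0.85 (standard error 0.49, unadjusted p = 0.105), and it was called without AFB1_CUR replicate 4 (-1.38, unadjusted p = 0.00838) and without AFB1 replicate 2 (-1.09, unadjusted p = 0.0480). With AFB1 replicate 1 in the fit GC was called at 4.14 (unadjusted p = 0.00286) in AFB1 against CON and at -3.92 (unadjusted p = 0.00392) in AFB1_CUR against AFB1. CYP27A1, another vitamin D hydroxylase abundant in liver, was then called at 3.48 and -3.26, where the 14 libraries gave 0.24 and 0.00. Of 7 hepatocyte genes, 4 were higher in AFB1 than in CON (median 0.66, 0 called), and all 7 were lower in AFB1_CUR than in AFB1 (median -0.51), with ALB, which encodes albumin, called at -3.73 (unadjusted p = 0.0136). ALB averaged 2.16 FPKM in CON, 8.99 in AFB1 and 0.656 in AFB1_CUR. The sum of the 7 genes, on average most of it SERPINA1, was 114 to 259 FPKM in CON, 79.7 to 315 in AFB1 and 39.99 to 170 in AFB1_CUR. ALB and AHSG were listed at 0 FPKM in at least 1 of the 14 libraries and the other 5 in none. The part of liver RNA in the GC values was not tested.

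CUBN, part of the receptor complex that retrieves the binding protein with its vitamin D from the filtrate and the most abundant gene of the supply group, differed by -0.34 (standard error 0.54) between AFB1 and CON. Without AFB1 replicate 5 it was -1.18 (unadjusted p = 0.0318), and its partner LRP2, encoding megalin, was -0.96 (unadjusted p = 0.0390), where LRP2 was -0.34 (standard error 0.46) in the 14 libraries. AFB1 replicate 5 had the highest proximal tubule sum of the series, 8095 FPKM. In the same fit CLDN2 (-0.96, unadjusted p = 0.0226), a tight junction protein, and the FGF receptors FGFR3 (-0.63, unadjusted p = 0.0135) and FGFR4 (-0.71, unadjusted p = 0.0116) were called. These genes were named after their values were seen, and whether tubule content accounts for it was not tested.

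Among 9 genes of hormone and mineral sensing that were tested, 0 were called by edgeR, DESeq2 or limma in any comparison of the 14 libraries, and 0 had an unadjusted p under 0.05 in edgeR. GNAS, the signalling subunit behind PTH1R, was the most abundant, at 112 FPKM in CON, 117 in AFB1 and 113 in AFB1_CUR. FGF23 was near the detection limit, at 0.0130 to 0.304 FPKM and 7 to 158 reads in the 14 libraries, and at 2.52 FPKM in AFB1 replicate 1. In AFB1 against CON it differed by -0.79 (standard error 0.61, unadjusted p = 0.215), so a change in FGF23 mRNA was not detectable in these libraries, and its protein reaches the kidney mainly from bone. With AFB1 replicate 1 in the fit the value turned to 2.70 (unadjusted p = 0.0381), and it was -2.67 (unadjusted p = 0.0399) in AFB1_CUR against AFB1, both called.

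Of the 8 genes of paracellular calcium and magnesium handling, edgeR called 0 in the 14 libraries, with 0 at an unadjusted p under 0.05. CLDN16, a tight junction protein of the thick ascending limb through which calcium and magnesium are reabsorbed, averaged 1.60 FPKM in CON, 1.15 in AFB1 and 1.96 in AFB1_CUR. It differed by -0.46 (standard error 0.34) in AFB1 against CON and by 0.71 (standard error 0.35, unadjusted p = 0.0606) in AFB1_CUR against AFB1. The latter was called without AFB1_CUR replicate 2 (0.94, unadjusted p = 0.00295), without both libraries high in leukocyte genes (0.85, unadjusted p = 0.0107), with AFB1 replicate 1 in the fit (0.86, unadjusted p = 0.0282) and by DESeq2 (0.70, unadjusted p = 0.0445). CLDN14, another tight junction protein, was called at 3.55 in AFB1 against CON and at -2.78 in AFB1_CUR against AFB1 with AFB1 replicate 1 in the fit, where the 14 libraries gave -0.13 and 0.91. FXYD2, a subunit that tunes the sodium pump and the most abundant gene of this group, was at 1039 FPKM in CON, 1082 in AFB1 and 919 in AFB1_CUR, with no call.

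Across the 14 libraries, on log2(FPKM + 1), 19 of the 21 pairs of members had a positive Pearson correlation, with r from -0.22 to 0.67. The highest was VDR with CYP27B1 (r = 0.671, permutation p = 0.00828, adjusted over the 21 pairs 0.169; Spearman's rho = 0.635, permutation p = 0.0163, adjusted 0.171). It was 0.442 without AFB1 replicate 5 and AFB1_CUR replicate 2, the libraries farthest from the median of VDR, and 0.726 with group means removed. For CYP27B1 with PTH1R, r was 0.590 (permutation p = 0.0223, adjusted 0.169) and rho 0.758 (permutation p = 0.00244, adjusted 0.0512), and r was 0.362 without AFB1 replicate 3 and CON replicate 4. In all, 4 pairs had p under 0.05 and 0 passed adjustment.

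Of 11256 named genes with a mean of at least 1 FPKM, those that followed each member most closely over the 14 libraries were picked as the 3 highest by Pearson correlation, so their r is high by choice. CYP24A1 was followed by NUDT9 (r = 0.919), TMED4 (0.878) and E2F5 (0.840). KL was followed by ANKS4B (0.936), AK4 (0.912) and MED31 (0.900), and PTH1R by FAH (0.919), SLC22A8 (0.917) and GUCD1 (0.889), of which SLC22A8 is an organic anion transporter on the proximal tubule marker list. VDR was followed by IGSF5 (0.884), CYFIP2 (0.884) and PDHA1 (0.865), CYP27B1 by CRAT (0.824) and ALG1 (0.819), CALB1 by GLIS3 (0.856), NUDT4 (0.836) and ASAP2 (0.836), and TRPV5 by ANKRD23 (0.823) and HCN2 (0.810). These points share library, depth and tubule content.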

How the data were processed

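The authors removed adapters and low-quality reads (cutadapt 1.9 is named in the submitters' notes), aligned the rest with HISAT2 2.2.1, and deposited a raw read count and an FPKM value per gene and library. StringTie 2.1.6 is named without a role. The counter is not given in the sources used here, nor is the build. Of 24947 genes whose symbol is in the RefSeq table of assembly ARS-UI_Ramb_v3.0, 24848 share its start and end, the 7 members among them, and coordinates are those of the deposited file. Columns of the authors' comparisons were not used.

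From the deposited counts, genes reaching 10 reads in at least 4 libraries entered the quasi-likelihood test of edgeR 4.0.16 (R 4.3.3, TMM), all groups in one fit, without AFB1 replicate 1 and without a block. A gene was called when its fold change exceeded 1.5 with an unadjusted p below 0.05, as in the study's screen, with Benjamini-Hochberg adjusted p over all genes tested beside it. DESeq2 1.42.0, limma 3.58.1 on log2(FPKM + 1) and on log2(FPKM + 0.1), other filters, RLE factors, only the compared groups, a replicate block, all 15 libraries and leaving out each library were alternatives. The main edgeR fit was tested on simulated data with known changes. Leaving out the libraries high in leukocyte genes and robust fitting were added after seeing the data. Exact permutation tests used scipy 1.17.1. The members, lists and tests were chosen with earlier results of these data known. Named are all members, every listed pathway gene called in the 14 libraries, in each role group the gene with the highest level and that with the largest AFB1 against CON change, and the 3 genes nearest to each member, of which some are not reported here. LRP2, SLC34A1 and TRPV6 were added by name, and CASR, CLDN2, CLDN14, CYP27A1, FGFR3, FGFR4 and PTHLH, called only in alternative fits, after their values were seen. The labels do not say that pens or animals are independent beyond 1 library per sheep, so p-values measure the spread between these libraries. Depth limits precision little here, as the lowest member count in the 14 libraries was 248. No sequences were analysed here.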

Additional observations from a re-analysis of the deposited data

Results flagged for a closer look

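Of 44 groups of 4 or 5 libraries checked for a value far from the others (the 7 members and 4 called genes, with the AFB1 group taken with and without replicate 1), 6 stood out. The cut-off flags about 1 in 20 groups of independent, normally distributed values. That rate does not describe these groups, as the AFB1 group was taken both ways and 4 of the genes were picked as called. CYP24A1 was at 5.70 FPKM in CON replicate 4, against 1.03 to 1.28 in the other CON libraries. KL was at 29.6 FPKM in AFB1_CUR replicate 2, against 44.5 to 49.2 in the rest of that group. S100G was at 123 FPKM in CON replicate 5, against 233 to 277, and at 118 FPKM in AFB1_CUR replicate 1, against 194 to 215. With AFB1 replicate 1 counted in its group, GC was at 584 FPKM in it, against 12.7 to 37.4, and SLC34A2 was listed at 0 FPKM, against 1.29 to 1.63.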

How the results depend on the processing

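Every estimate for CYP24A1 against CON stayed above 0 in the settings tried, and its adjusted p was never below 0.05. The members called between AFB1 and CON went from 1 to 0 with all 15 libraries or the replicate block and to 2 (CYP24A1 and CALB1) without the libraries high in leukocyte genes. Between AFB1_CUR and CON they went from 1 to 0 in these 3 settings. The other 8 settings, apart from leaving out single libraries, gave the same counts.

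The listed pathway genes called between AFB1 and CON went from 3 to 4 with all 15 libraries, where SLC34A2 and SLC34A3 were lost and CLDN14, CYP27A1 and FGF23 gained, to 4 without the libraries high in leukocyte genes, and to 2 with the replicate block or limma on log2(FPKM + 1). Those called between AFB1_CUR and AFB1 went from 1 to 5 with all 15 libraries, 2 without a filter, 2 with DESeq2 and 3 without the libraries high in leukocyte genes (S100G, CLDN16 and CASR, the last at 0.60, unadjusted p = 0.0421). Between AFB1_CUR and CON they went from 1 to 0 with all 15 libraries, 2 without a filter and 0 without the libraries high in leukocyte genes. Without a filter the added gene was PTHLH in both comparisons, which failed the count filter and is not among the 41 tested. SLC34A2 fell under the fold threshold with limma on log2(FPKM + 1) (-0.52).

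Over all genes, 532, 350 and 530 were called in AFB1 against CON, AFB1_CUR against AFB1 and AFB1_CUR against CON. The counts were 1261, 1069 and 334 with all 15 libraries, 232, 123 and 214 among genes that reached 1 FPKM in 5 or more libraries, and 867, 707 and 928 without a filter. They were 109, 87 and 82 with limma on log2(FPKM + 1), and 403, 339 and 363 with limma on log2(FPKM + 0.1). AFB1_CUR against CON gave 342 without the libraries high in leukocyte genes. Leaving out each library gave 474 to 843 (the highest without AFB1 replicate 5), 327 to 665 (the highest without AFB1 replicate 2) and 305 to 706 (the lowest without AFB1_CUR replicate 2). It gave 0 to 2, 0 to 1 and 0 to 1 members, and 1 to 7, 0 to 2 and 0 to 1 pathway genes. The highest, 7, was without AFB1 replicate 5.

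Among the members, only estimates that were not called reversed. Of the listed pathway genes, FGF23 and CLDN14 reversed to called values with AFB1 replicate 1 in the fit, as given above. In AFB1 against CON, all 15 libraries gave VDR -0.172, KL -0.208 and TRPV5 -0.269, and KL was -0.0225 with limma on log2(FPKM + 1) and in the permutation test, -0.0251 with a pseudocount of 0.1 and -0.0292 with the replicate block. Leaving out 1 library gave VDR -0.0518 to 0.176, KL -0.363 to 0.374 and TRPV5 -0.0923 to 0.2335. In AFB1_CUR against AFB1, all 15 libraries gave VDR 0.147, PTH1R 0.213, KL 0.201, CALB1 0.154 and TRPV5 0.151. PTH1R and KL were 0.107 and 0.105 with limma on log2(FPKM + 1) and in the permutation test, 0.110 and 0.110 with a pseudocount of 0.1, and 0.0141 and 0.0513 with the replicate block. Leaving out 1 library gave VDR -0.187 to 0.0406, CYP24A1 -0.845 to 0.662, PTH1R -0.297 to 0.117 and KL -0.369 to 0.368. In AFB1_CUR against CON, VDR was 0.0408 with limma on log2(FPKM + 1) and in the permutation test, 0.0426 with a pseudocount of 0.1 and 0.0900 without the libraries high in leukocyte genes, and KL was -0.00625 with all 15 libraries and -0.00429 without a filter. Leaving out 1 library gave VDR -0.0634 to 0.0954, KL -0.0960 to 0.2155 and TRPV5 -0.347 to 0.00818. The causes were not tested.

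Whether the replicate numbers pair the libraries was not settled. Deviations from group means correlated at -0.12 to 0.43 (median 0.04) in 13 pairs with the same number, 4 of them over 0.1. In 52 pairs with other numbers they correlated at -0.38 to 0.19 (median -0.01), 7 of them over 0.1. Pairs among the replicates numbered 2 (0.227, 0.232 and 0.425) and AFB1 with CON replicate 5 (0.228) were above every pair with other numbers. With the replicate block, CYP24A1 was 1.84 (unadjusted p = 0.0504) in AFB1 and 1.51 (unadjusted p = 0.0795) in AFB1_CUR against CON, GC was 0.92 (unadjusted p = 0.0723), and 486, 342 and 591 genes were called.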
